A study of Mus musculus with 6 samples.

Results

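Natural killer cells of the mouse pancreas were drawn from droplet-based single-cell RNA sequencing of pancreatic cells. A barcode was taken as a natural killer (NK) cell when it held at least 200 genes and at most 20% mitochondrial unique molecular identifiers (UMIs), 0 UMIs of Cd3d, Cd3e, Cd3g, Cd79a and Lyz2, and UMIs of at least 3 of the 7 genes Ncr1, Klrb1c, Klre1, Gzma, Nkg7, Tyrobp and Fcer1g, with at least 1 of Ncr1, Klrb1c, Klre1 and Gzma among them. This choice gave 86 NK cells of 4929 barcodes that passed the gene and mitochondrial limits, out of 8582 deposited barcodes. Because the cells were chosen by the counts of these genes, their levels below are a description and carry no test.

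Mice carried the R26[CA]30EYFP allele on the C57Bl/6J background in every library. In this reporter a run of CA repeats keeps the yellow fluorescent protein EYFP out of frame until a slip in DNA replication restores it. For each of 3 runs, cells with EYFP and cells without it were sequenced as separate libraries, 6 libraries in all. Run 3 was collected 9 days after cerulein (50 ug/kg, 7 intraperitoneal injections a day on 2 days), which overstimulates acinar cells and causes pancreatitis. Runs 1 and 2 were untreated and are called homeostasis. Run 3 and pancreatitis cannot be told apart, and the labels do not say whether libraries came from separate animals. The p-values of the share tests therefore rest on the spread between these libraries, which may be technical. The gene tests also borrow spread from other genes, so their p-values do not measure each gene's own spread between libraries alone.

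NK cells are innate lymphocytes that kill infected, damaged or transformed cells by releasing perforin and granzymes, and that secrete interferon gamma and chemokines. Whether one fires depends on the balance of activating receptors, which signal through adaptors such as Tyrobp and Fcer1g, and inhibitory receptors that read MHC class I on the target. They rely on interleukin 15 rather than on a rearranged antigen receptor, and tissues also hold related innate lymphocytes, type 1 innate lymphoid cells (ILC1), that share many of their genes.

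The NK cells were spread very unevenly over the libraries. EYFP positive run 3 held 6 NK cells, EYFP positive run 1 held 2 and EYFP positive run 2 held 0. EYFP negative run 3 held 63, EYFP negative run 1 held 8 and EYFP negative run 2 held 7. Together they held 483952 UMIs, of which 345189 came from EYFP negative run 3, where the median was 5284 UMIs and 2019 genes per cell. The median depth was 7816.5 UMIs in EYFP positive run 3, 6658.5 in EYFP negative run 1, 1676 in EYFP negative run 2 and 1080 over the 2 cells of EYFP positive run 1. Erythroid genes made up 20.2% of all UMIs of EYFP positive run 3 and 62.7% of EYFP negative run 3, against 0.213% to 7.24% in the homeostasis libraries, and 16 acinar genes 20.7% and 9.11%, against 1.30% to 4.56%. Between 23 and 71 cell barcodes were shared by the EYFP positive and EYFP negative libraries of a run. Of the 86 NK cells, 1, in EYFP positive run 1, carried a barcode seen in another library.

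Every gene of the rule was found in most members. Fcer1g, an adaptor with an activating signalling motif, had UMIs in 85 of 86 cells, Klrb1c, which encodes NK1.1, in 83, Ncr1, the activating receptor NKp46, in 82, and Nkg7, a granule membrane protein, and Tyrobp, the adaptor DAP12, in 81 each. Klre1, a lectin-like receptor, had UMIs in 75 cells and Gzma, the protease granzyme A, in 64. All 7 genes were present in 61 cells and exactly 3 in 4 cells, which lie just inside the limit. Just outside it lay 6 cells with exactly 2 of the 7, and Klrk1, which encodes the activating receptor NKG2D and was not part of the rule, had UMIs in 3 of the 4 just inside, against 4 of these 6. In all, 164 barcodes met the marker requirement, and 78 of them were set aside, 69 for a UMI of Cd3d, Cd3e or Cd3g.

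T cell transcripts were therefore checked, mainly with genes the rule did not use. Cd4, Cd8a, Cd8b1, Cd5 and Cd6 were at 0 in all 86 cells, which allows up to 3.49% of cells with a UMI and sets no limit on cells that express them. Trbc1, a constant segment of the T cell receptor beta chain, had UMIs in 59 cells, Trbc2 in 28 and Trac, the alpha chain segment, in 7, and 67 cells held at least 1 of the 3. In EYFP negative run 3 the level of Trac was 11.6 CPM (counts scaled to the summed UMIs of the cells) in NK cells, against 528 CPM in CD8 T cells. Trbc1 was at 348 CPM in NK cells and 687 CPM in CD8 T cells. Of 14 T cell markers 8 were at 0, among them Cd3d, Cd3e and Cd3g, whose zeros were set by the rule. The 14 summed to 552 and 753 CPM in the NK cells of EYFP positive and EYFP negative run 3. In EYFP positive run 1 and EYFP negative runs 1 and 2 they summed to 1389, 816 and 470 CPM. In the CD8 T cells of EYFP negative run 3 they summed to 7516 CPM. Those cells were chosen by UMIs of Cd3 genes and of Cd8a or Cd8b1, so the contrast is partly set by selection.

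Markers of the other cell types a pancreas could give were checked in the same way. Of 7 gamma-delta T cell markers, 4 were at 0 (Tcrg-C1, Trgv2, Sox13 and Blk). In at least 10% of the 86 cells UMIs of 2 were found, among them Trdc in 22 cells. Tcrg-C4, outside this list, is given with the granzyme A split. Of 10 markers of ILC2 and ILC3, 9 were at 0, among them Il1rl1 and Il22, and Gata3 had UMIs in 24 cells. All 7 neutrophil and all 4 platelet markers were at 0, as were 12 of 16 macrophage and dendritic cell markers, among them C1qb, Csf1r and Adgre1, and 8 of 9 fibroblast markers. Of 9 ductal markers 5 were at 0, among them Krt19 and Sox9, and Spp1 had UMIs in 4 cells, Epcam in 3, Krt8 in 2 and Clu in 1. Of 9 endothelial markers 4 were at 0, among them Cdh5 and Cldn5, while Pecam1, which leukocytes also express, had UMIs in 18 cells, Plvap in 2, and Kdr, Flt1 and Esam in 1 each. Acinar transcripts were widespread: 15 of 16 acinar markers had UMIs in at least 10% of the NK cells.

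In 5 of the 7 genes that chose the cells, the 250 bases before the RefSeq transcript start held the core of the RUNX motif, which is bound by a family that includes the lymphocyte factors Runx1 and Runx3. Runx3 itself had UMIs in 64 of the 86 NK cells. The promoters of 4 genes that hold these letters and 1 that does not are shown 5′ to 3′ on the gene's strand (RefSeq, GRCm38.p6), with the letters TGTGGT or their reverse complement in capitals. They are Ncr1 (chr7:4337465-4337714, plus strand), Klrb1c (chr6:128788642-128788891, minus strand), Gzma (chr13:113100982-113101231, minus strand), Nkg7 (chr7:43436888-43437137, plus strand) and Fcer1g (chr1:171234350-171234599, minus strand).
Ncr1: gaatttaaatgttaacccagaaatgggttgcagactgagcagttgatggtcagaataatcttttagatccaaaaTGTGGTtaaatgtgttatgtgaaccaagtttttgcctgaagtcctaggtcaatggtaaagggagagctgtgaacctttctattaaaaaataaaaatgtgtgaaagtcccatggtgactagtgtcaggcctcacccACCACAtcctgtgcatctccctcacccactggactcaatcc
Klrb1c: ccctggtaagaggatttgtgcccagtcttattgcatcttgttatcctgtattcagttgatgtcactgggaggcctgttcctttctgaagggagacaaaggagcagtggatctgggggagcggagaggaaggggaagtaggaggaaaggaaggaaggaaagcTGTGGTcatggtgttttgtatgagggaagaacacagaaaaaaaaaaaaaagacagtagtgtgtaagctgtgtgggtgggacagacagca
Gzma: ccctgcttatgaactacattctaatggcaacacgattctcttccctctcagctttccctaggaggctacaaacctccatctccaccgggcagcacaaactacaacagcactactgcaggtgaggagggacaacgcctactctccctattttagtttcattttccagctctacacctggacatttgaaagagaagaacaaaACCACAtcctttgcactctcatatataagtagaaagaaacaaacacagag
Nkg7: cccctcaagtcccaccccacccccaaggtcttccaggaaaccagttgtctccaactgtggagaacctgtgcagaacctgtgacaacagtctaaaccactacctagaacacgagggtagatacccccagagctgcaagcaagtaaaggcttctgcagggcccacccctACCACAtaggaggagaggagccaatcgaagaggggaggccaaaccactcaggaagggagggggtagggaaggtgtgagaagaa
Fcer1g: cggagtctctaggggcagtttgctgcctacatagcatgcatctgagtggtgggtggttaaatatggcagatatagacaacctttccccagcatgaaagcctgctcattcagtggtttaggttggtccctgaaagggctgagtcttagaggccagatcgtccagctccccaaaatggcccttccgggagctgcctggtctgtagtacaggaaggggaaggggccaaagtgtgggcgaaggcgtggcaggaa
The core stood 176 and 41 bases before the start of Ncr1, 89 bases before that of Klrb1c, 50 before that of Gzma and 83 before that of Nkg7. It was also found in Klre1 and not in the window of Fcer1g, and the table had 6 of the 7 genes (Tyrobp is named only). Of 32851 promoters of this length, 14.05% held the core on either strand, and 15.9% of 27025 genes had at least 1 promoter with it. So did 9 of the 19 genes in the table among the 25 most particular to NK cells by ratio. Those 25 are named with the levels. Among the 9, Gzma, Ncr1, Klrb1c and Klre1 are rule genes, which chose the cells, so this set is not separate from the rule genes. The rest were Gzmb, Ccl3, Klrc2, Klrb1a and Prf1. The ETS letters GGAAGT, found in 19.7% of all promoters and 22.2% of genes, occurred in 1 of the 6 rule genes in the table (Klrb1c) and 5 of the 19, and the T-box letters GGTGTG, found in 16.3% of promoters and 18.3% of genes and able to overlap the RUNX letters in TGTG, in 1 of the 6 (Nkg7) and 3 of the 19. A match is a run of letters only, and binding was not measured.

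Levels were set against CD8 T, CD4 T and B cells of the same library, EYFP negative run 3, which had 63 NK cells, 45 CD8 T cells, 91 CD4 T cells and 437 B cells, with median depths of 5284, 7585, 6302 and 5398 UMIs. B cells, which should lack these genes, also served as a background. UMIs of Ncr1 were found in 0.915% of them, of Gzma in 0.686%, of Ccl5 in 1.83% and of Prf1 in 2.06%. Above these, UMIs of Tyrobp were found in 22.4%. The 161 Gzma UMIs of the B cells lay in 3 cells. The part of free RNA in these counts was not tested. The 25 genes with the highest ratio over both CD8 T cells and the other barcodes, among genes in at least 20% of NK cells, were Gzma, Klra8, Klra4, Ncr1, Ccl4, Klrb1c, Gzmb, Klri2, Klre1, Fcer1g, Tyrobp, Cd244, AC163354.1, Klrb1f, Cma1, Ccl3, Klrc2, Klrb1b, Klra9, Klrb1a, Styk1, Arsb, Itga2, Serpinb9 and Prf1. Of the 23 with a RefSeq entry, 11 lie on chromosome 6, and 10 of these are Klr genes within a run of 38 protein-coding genes from Klrb1a to Klra9, the natural killer gene complex. Ccl3 and Ccl4 are neighbours on chromosome 11. Reads of near-identical Klra and Klrc genes may have been split or merged in counting, so their single levels are uncertain.

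Granule genes summed to 13497 CPM in NK cells and 2362 CPM in CD8 T cells over the 19 listed. Gzma, a gene of the rule, was at 6037 CPM in NK cells, with an exact 95% Poisson interval of 5781 to 6302 that covers counting error only, against 65.3 CPM in CD8 T cells, 0 in CD4 T cells and 61.8 CPM in B cells. UMIs of Gzma per cell ran from 0 through a median of 29 to 111. Prf1, the pore-forming protein perforin, was at 739 CPM and in 79.4% of NK cells, against 41.8 CPM in CD8 T cells. Gzmb, granzyme B, was at 281 CPM and in 46.0% of NK cells, against 5.23 CPM in CD8 T cells, and Serpinb9, an inhibitor of granzyme B, at 232 CPM against 13.1 CPM. Ctsw, a cathepsin of cytotoxic lymphocytes, was at 884 CPM against 233 CPM. The other granzymes were rare, with Gzmk in 4, Gzmc in 3 and Gzmm in 2 of the 86 cells. Of the 19 listed granule genes, 16 had a UMI in at least 10% of the members. Cma1, a chymase better known from mast cells, was at 177 CPM in NK cells and 0 in CD8 T cells, while of the 8 other mast cell and basophil markers Mcpt8, Fcer1a, Ms4a2, Mcpt4, Gata2 and Il4 were at 0 in all 86, Kit had UMIs in 5 cells and Cpa3 in 2.

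Activating receptors and their adaptors summed to 11061 CPM in NK cells and 1385 CPM in CD8 T cells. Klrk1 was at 1437 CPM and in 98.4% of NK cells, against 107 CPM in CD8 T cells. Tyrobp was at 2616 CPM against 39.2 CPM, Fcer1g at 2387 CPM against 57.5 CPM, and Hcst, the adaptor DAP10 of NKG2D, at 733 CPM against 476 CPM. Fcgr3, the Fc receptor CD16 used in antibody-dependent killing, had UMIs in 28.6% of NK cells and 0 CD8 T cells. Of the 20 activating receptor and adaptor genes measured, 19 had a UMI in at least 10% of the members.

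Inhibitory and class I-binding receptors summed to 5461 CPM in NK cells and 510 CPM in CD8 T cells, and were found in combinations. Klrd1, which encodes CD94, was at 1188 CPM in NK cells and 253 CPM in CD8 T cells. Its partners Klrc1, the inhibitory NKG2A, and Klrc2, the activating NKG2C, were at 426 and 690 CPM in NK cells against 60.1 and 34.0 CPM. Klrc2 had UMIs in 60 of the 63 cells, and 29 of the 30 cells with Klrc1 held it too. The Ly49 receptors differed from cell to cell: Klra9 (Ly49I, inhibitory) had UMIs in 54.0%, Klra8 (Ly49H, activating) in 46.0%, Klra7 (Ly49G, inhibitory) in 39.7%, Klra4 (Ly49D, activating) in 36.5%, Klra3 in 19.0% and Klra1 in 11.1% of cells. No Klra gene was found in 13 of the 63 cells, 1 in 6, 2 in 19, 3 in 15, 4 in 9 and 5 in 1 cell. Among 23 cells with Klra4, 65.2% held Klra8, against 35.0% of the cells without it. Both genes were at 0 in the 11 cells without Gzma described below. These cells count among those without Klra4, so the contrast is not free of that split. Most of them held none of the Klra genes named here. The checkpoint receptors Tigit, Lag3 and Havcr2 had UMIs in 1, 5 and 1 of the 86 cells.

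**Figure D1:**
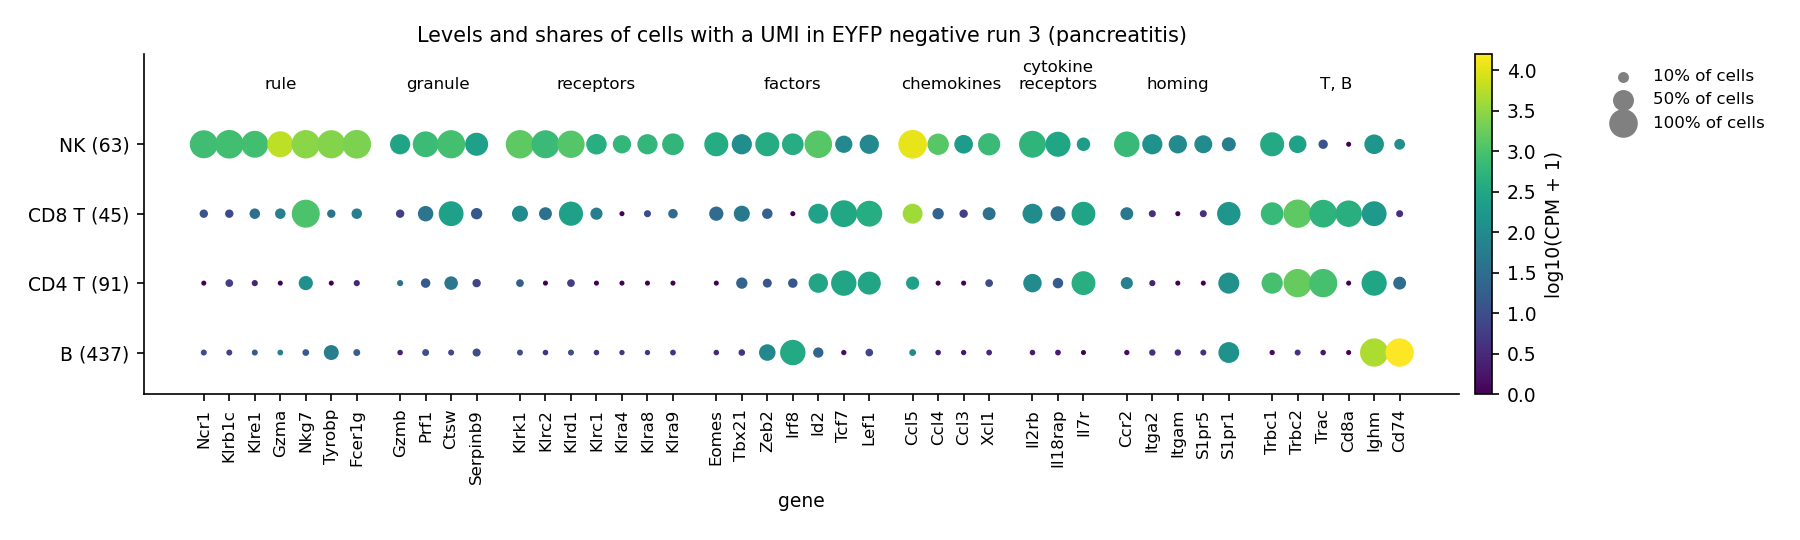
Levels (colour, log10 of CPM + 1) and shares of cells with a UMI (dot area) of genes on the horizontal axis, grouped by role, in the NK, CD8 T, CD4 T and B cells (rows, cell numbers in brackets) of EYFP negative run 3. Granule, receptor and chemokine genes fill the NK row, with Gzma at 6037 CPM against 65.3 CPM in CD8 T cells, while Tcf7 and Lef1 are higher in both T cell rows.

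Transcription factors separated NK from T cells in both directions. Eomes, the T-box factor of conventional NK cells, was at 385 CPM and in 68.3% of NK cells, against 28.7 CPM in CD8 T cells, and Tbx21, which encodes T-bet, at 113 CPM against 49.7 CPM. Zeb2, a repressor active late in NK maturation, was at 377 CPM against 18.3 CPM, Irf8 at 417 CPM against 0, and Id2, which blocks the E proteins of T and B cell development, at 1214 CPM against 264 CPM. Tcf7 and Lef1, the factors of naive T cells, were lower in NK cells, at 92.7 and 95.6 CPM against 319 and 392 CPM. Zfp683, the tissue-residence factor Hobit, had a UMI in 1 of the 86 cells.

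Of 15 listed chemokine and cytokine genes, 8 had UMIs in at least 10% of the members and 5 were at 0. Ccl5 was at 11110 CPM and in 63 of 63 NK cells, from 6 through a median of 51 to 287 UMIs per cell, against 4032 CPM in CD8 T cells, 236 CPM in CD4 T cells and 82.1 CPM in B cells. Ccl4 was at 1234 CPM against 20.9 CPM in CD8 T cells, but 1 cell held 238 of its 426 UMIs. Ccl3 was at 191 CPM against 5.23 CPM and Xcl1, which draws cross-presenting dendritic cells, at 698 CPM against 36.6 CPM. Ifng, interferon gamma, had UMIs in 41.3% of NK cells and was at 148 CPM against 34.0 CPM. Csf1, Csf2, Ccl9, Il10 and Areg were at 0 in all 86 cells. Receptors for interleukins 15 and 18 were common, with Il2rb at 530 CPM and Il18rap at 310 CPM, against 107 and 36.6 CPM in CD8 T cells. Il2ra and Il12rb1 had UMIs in 3 and 2 of the 86 cells.

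Homing genes differed between NK and CD8 T cells in both directions. Ccr2, the receptor for monocyte chemoattractants, was at 663 CPM in NK cells and 47.0 CPM in CD8 T cells. Ccr7, the lymph node homing receptor, was at 0 in all 86 NK cells and at 149 CPM in CD8 T cells. S1pr5, the sphingosine receptor of NK cell egress, was at 98.5 CPM against 2.61 CPM, and S1pr1, its counterpart in T cells, at 57.9 CPM against 152 CPM. Itga2 (CD49b) and Itgam (CD11b), the integrins of circulating NK cells, were at 139 and 98.5 CPM against 2.61 CPM and 0. Itgae (CD103), an integrin of resident lymphocytes, was at 0 in all 86. Of the 29 cell cycle genes listed, 12 were at 0 in all 86 cells. These were Mki67, Birc5, Cdk1, Ccna2, Ccnb1, Ccnb2, Cenpf, Tpx2, Ube2c, Hmmr, Bub1b and Aurkb. Others of the list had UMIs, among them Cenpa, Mcm3 and Stmn1, and 8 of the 29 had UMIs in at least 10% of the members.

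The members were not uniform, and 1 split ran along granzyme A. In EYFP negative run 3, 12 cells held 0 UMIs of Gzma and 51 held at least 1. The 12 were the deeper ones, with a median of 6044 UMIs against 4657 UMIs. This split was chosen after the values were seen and Gzma is a gene of the rule, so what follows is a description with no test. A cell with 14.7% haemoglobin UMIs among the 12, and a cell with 55.6% acinar UMIs among the 51, were left out, which leaves 11 cells without Gzma and 50 with it.

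Cells without Gzma more often held many of the genes listed for tissue residence and ILC1. Il7r, the interleukin 7 receptor, had UMIs in 9 of 11 cells without Gzma and 2 of 50 with it, at 1008 and 19.7 CPM. Cxcr6, a chemokine receptor of resident lymphocytes, had UMIs in 7 of 11 and 0 of 50. Tmem176b had UMIs in 9 of 11 and 1 of 50, Tmem176a in 9 of 11 and 3 of 50, and the transcription factor Ikzf2 in 10 of 11 and 7 of 50. Ltb, lymphotoxin beta, had UMIs in all 11 and in 20 of 50. AC163354.1 was found in 10 of 11 and 4 of 50, and Tcrg-C4, a T cell receptor gamma constant segment, in 8 of 11 and 0 of 50. Trbc2 was found in 9 of 11 and 12 of 50. Of 15 genes of the ILC1 and tissue residence list with any UMI, 13 were found in a larger share of the cells without Gzma, with a median difference of 37.5 percentage points. Itga1 (CD49a), an integrin of ILC1, was in 2 of 11 and 9 of 50. Markers of other cells also had larger shares there, in 14 of 16 acinar genes (median 16.1 points) and 5 of 6 T cell genes (median 14.5 points), and their part in the split was not tested. Over all 5369 genes found in at least 10% of these cells the median difference was 3.27 points, and 3149 genes had the larger share in cells without Gzma.

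Genes of mature NK cells were found in few of the same cells, while part of the granule list was not lower. Eomes had UMIs in 1 of 11 cells without Gzma and 41 of 50 with it, and Zeb2 in 1 of 11 and 42 of 50. Prf1 was found in 4 of 11 and 45 of 50, and Gzmb in 1 of 11 and 27 of 50. Itgam, S1pr5, Cma1, Klrg1, Klra4, Klra7 and Klra8 were each at 0 in the 11, against 23, 21, 20, 18, 22, 24 and 29 of 50. Klre1 was found in 4 of 11 and 50 of 50. Nkg7, Ctsw and Srgn, the granule proteoglycan serglycin, were in 11 of 11 each, against 49, 48 and 46 of 50, and Tbx21 in 5 of 11 and 23 of 50. Of 18 granule genes 13 had a smaller share without Gzma and 5 a larger one, with a median difference of -6.36 points. Of the 12 genes of the mature list, 10 had a smaller share without Gzma, with a median difference of -42.4 points, and of the 12 of the immature list 10 had a larger share, with a median of 22.3 points.

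**Figure D2:**
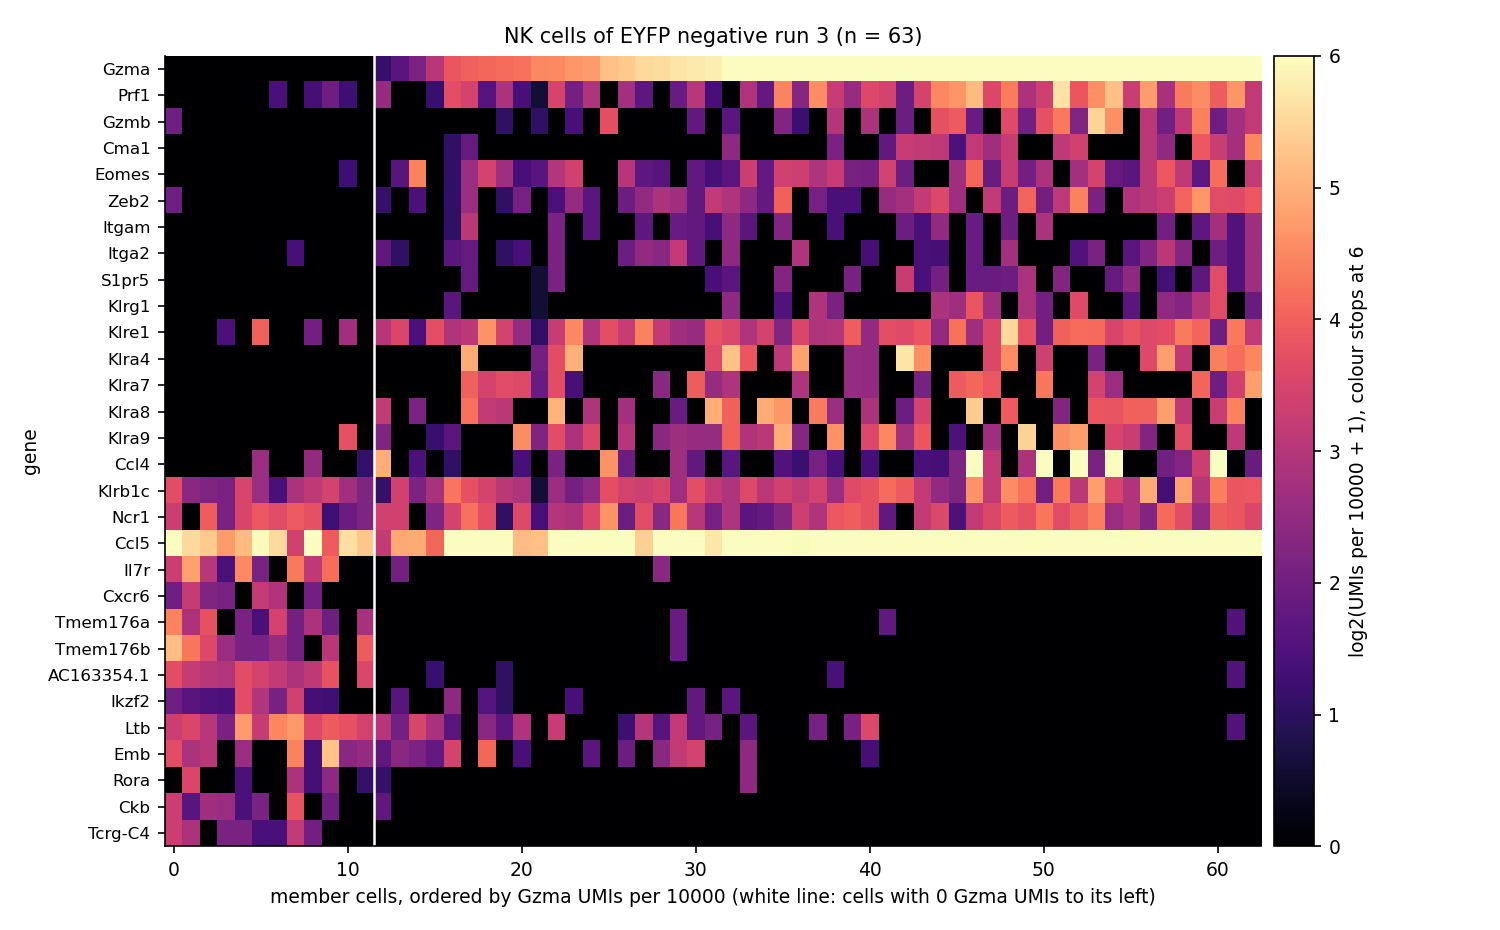
Each column is 1 of the 63 NK cells of EYFP negative run 3, ordered by Gzma, and each row a gene, coloured by log2 of its UMIs (scaled to a fixed depth per cell, plus 1), with the colour stopping at 6. Most of the 12 cells left of the white line, with 0 Gzma UMIs, hold Il7r, Cxcr6, Tmem176a and Tmem176b, and few hold Eomes, Zeb2 or the Klra genes seen in many columns to the right.

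The other 4 libraries held 8 cells without Gzma and 13 with it, after 2 cells rich in transcripts of other types were left out. Here depth ran the other way, with medians of 1667.5 and 7017 UMIs before they were left out, so genes missing from the cells without Gzma cannot be told apart from shallow cells. Some genes were found more often in the shallower cells. Il7r had UMIs in 3 of 8 cells without Gzma and 2 of 13 with it, Cxcr6 in 3 of 8 and 0 of 13, Tmem176b in 3 of 8 and 0 of 13, and AC163354.1 in 5 of 8 and 2 of 13. Eomes had UMIs in 3 of 8 and 12 of 13, and Zeb2 in 1 of 8 and 11 of 13. Other genes of the run 3 split did not repeat: Tcrg-C4 was in 0 of 8 and 0 of 13, and Ckb in 1 of 8 and 0 of 13.

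A second grading used Cd27 and Itgam, which mark early and late stages of mouse NK maturation. In EYFP negative run 3, Cd27 without Itgam was found in 15 cells, both in 6, Itgam without Cd27 in 17 and neither in 25. At a median of 5284 UMIs per cell an absent UMI of these genes does not show an absent transcript, since neither held more than 3 UMIs in any cell.

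The share of NK cells was compared between pancreatitis and homeostasis. NK cells made up 2.52% of kept barcodes in EYFP positive run 3 and 4.30% in EYFP negative run 3, against 0.240% in EYFP positive run 1, 0 in EYFP positive run 2 (0 of 187 barcodes, which allows up to 1.604%), 1.83% in EYFP negative run 1 and 0.397% in EYFP negative run 2. Among kept barcodes both pancreatitis libraries were above all 4 homeostasis libraries. The means were 3.41% ± 1.26 (SD, n = 2) in pancreatitis and 0.616% ± 0.824 (SD, n = 4) in homeostasis, a difference of 2.79 percentage points. The two-sided exact permutation test gave p = 0.133, the smallest it can give with 2 against 4 libraries, and 0.267 after Benjamini-Hochberg adjustment over the 4 share tests. Over all deposited barcodes the difference was 1.05 points (exact permutation p = 0.267), and the 2 pancreatitis libraries were no longer the 2 highest. With every barcode thinned to 1000 UMIs, which left out 576 shallower barcodes, the shares were 2.79% and 5.07% in pancreatitis, against 0.126%, 0, 2.25% and 0.495% in homeostasis. Thinning lets T cells past the bar on Cd3 genes: of the 70 thinned NK cells of EYFP negative run 3, 59 were NK cells before thinning and 10 had held Cd3 UMIs, as had 1 of the 9 of EYFP negative run 1.

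Within lymphocytes the picture was similar. NK cells made up 20% of NK and T cells in EYFP positive run 3 and 20.1% in EYFP negative run 3, against 5%, 0, 12.3% and 4.38% in EYFP positive runs 1 and 2 and EYFP negative runs 1 and 2. The difference was 14.6 points (20.03% ± 0.045, n = 2, against 5.42% ± 5.10, n = 4, SD), with the same exact permutation p = 0.133, adjusted 0.267. The 0 of 24 NK and T cells in EYFP positive run 2 allows up to 12.5%. Where cells with a Trac, Trbc1 or Trbc2 UMI were also barred, the differences fell to 0.807 and 5.67 points.

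**Figure D3:**
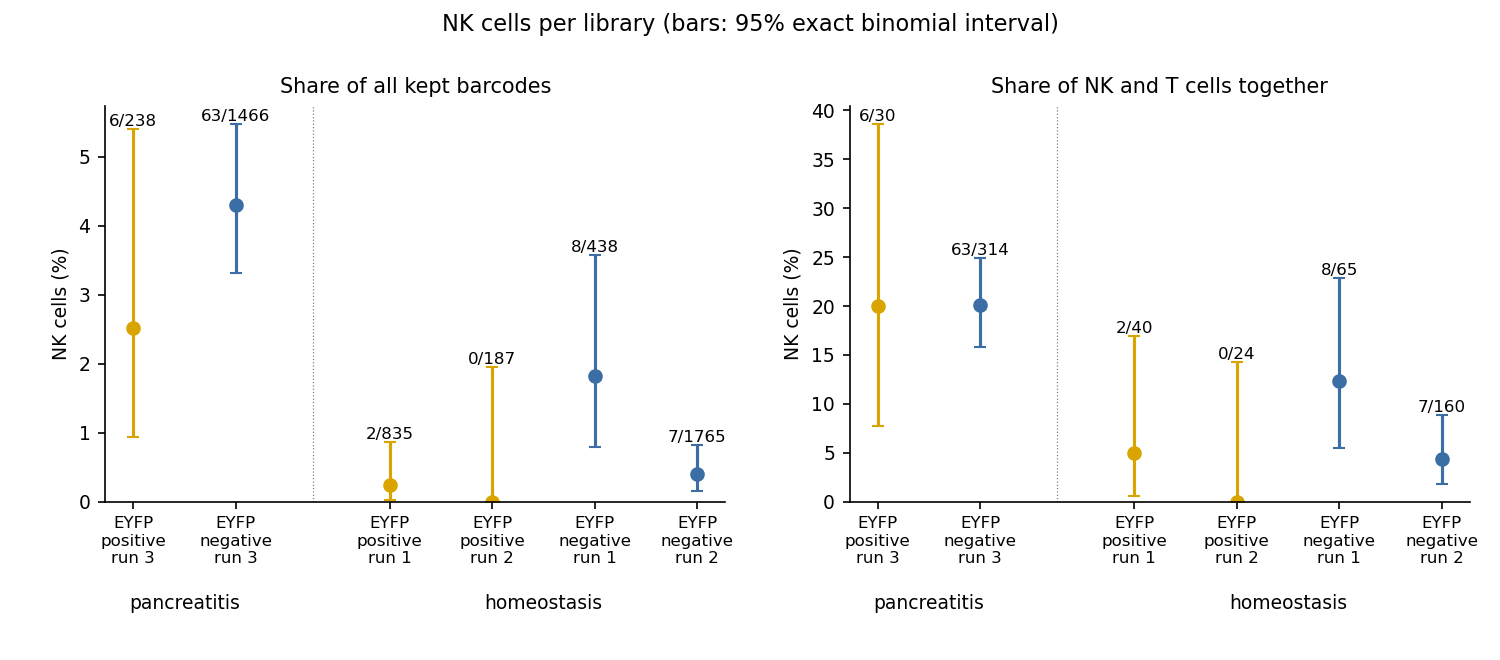
NK cells as a percentage of kept barcodes (left) and of NK and T cells together (right) in each library, with 95% exact binomial intervals that cover counting error only and counts above each bar, EYFP positive in yellow and EYFP negative in blue. Both pancreatitis libraries lie above the 4 homeostasis libraries in both panels, at 2.52% and 4.30% and at 20% and 20.1%.

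EYFP positive and EYFP negative libraries were compared in the same way. The mean NK share was 0.920% ± 1.39 where cells had EYFP, against 2.17% ± 1.97 where they did not (SD, n = 3 each), a difference of -1.25 points with a two-sided exact permutation p of 0.5, adjusted 0.667. It was -0.19 points without EYFP negative run 3, -2.14 without EYFP negative run 2, -2.05 without EYFP positive run 3, -0.793 without EYFP positive run 2 and -0.091 with Trac, Trbc1 and Trbc2 barred. In runs 1, 2 and 3 the EYFP positive minus EYFP negative difference was -1.59, -0.397 and -1.78 points, the same direction each time. Among NK and T cells the difference was -3.92 points (8.33% ± 10.4 against 12.2% ± 7.84, SD, n = 3 each, exact permutation p = 0.7, adjusted 0.7), and in run 3 it was -0.0637 points. The smallest p that 3 against 3 libraries can give is 0.1, so neither difference could pass 0.05.

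Some members held many transcripts of other cell types. In 4 members over 5% of UMIs came from 16 acinar marker genes, from erythroid genes or from 4 MHC class II genes. In EYFP negative run 3 a cell with 19147 UMIs held 10648 acinar UMIs, 55.6% of its total, alongside UMIs of all 7 NK genes, and it was the 1 member that Scrublet called a doublet. Of the 1944 Clps UMIs in the NK cells of that library, 1887 came from it. A second cell of the same library held 14.7% erythroid UMIs. In EYFP negative run 2 a cell with 12072 UMIs held 675 class II UMIs, 5.59% of its total, with 0 UMIs of Ncr1, Klrb1c, Gzma, Nkg7 and Il2rb, and a cell with 1006 UMIs held 6.86% acinar UMIs. Without these cells the acinar genes gave 0.235% of NK UMIs in EYFP negative run 3, against 3.30% with them, and the erythroid genes 0.187% against 0.533%. In that library the erythroid genes gave 6.68%, 5.08% and 5.59% of the UMIs of CD8 T, CD4 T and B cells. The summed level of the 12 B cell markers was 21218 CPM in EYFP negative run 2 and 190 to 851 CPM in the other 4 libraries with NK cells, and Cd74, H2-Aa and H2-Ab1 gave 351, 125 and 97 UMIs of it in EYFP negative run 2.

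**Figure D4:**
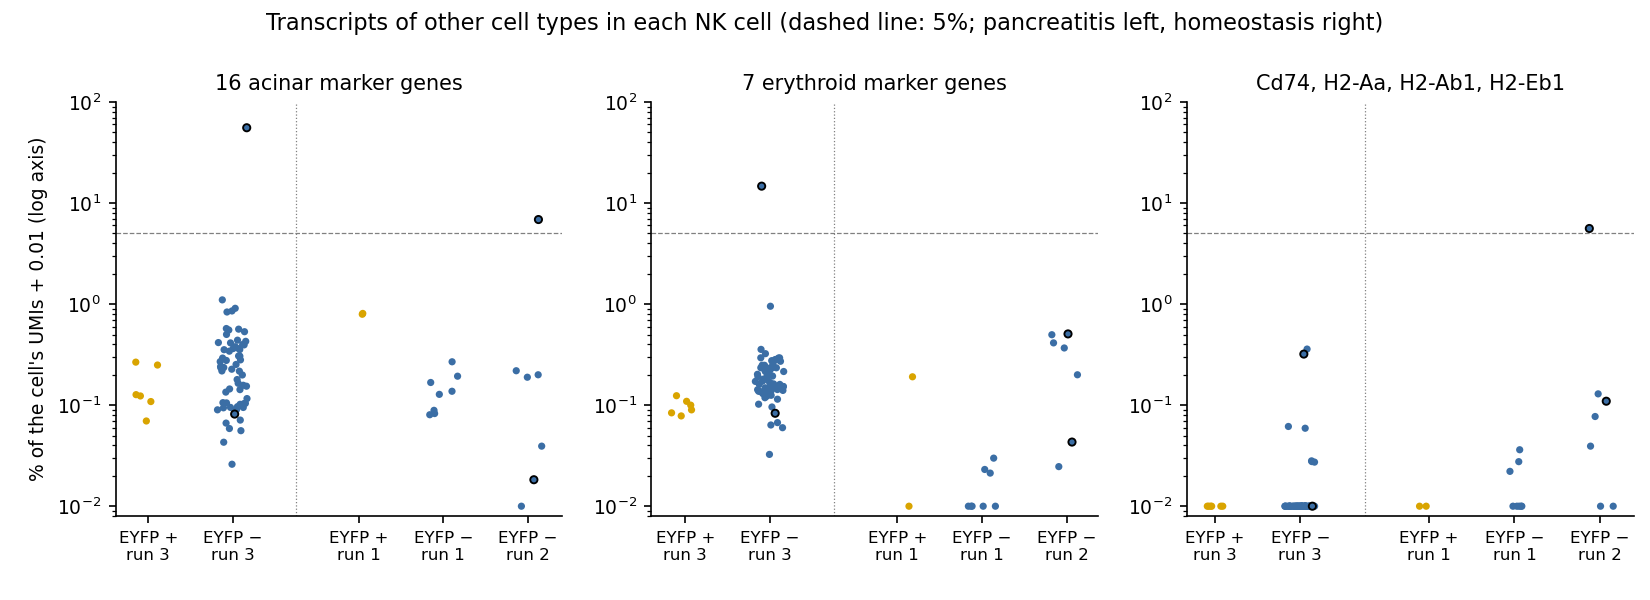
Share of each NK cell's UMIs (points, log axis after adding 0.01%) that came from acinar, erythroid and MHC class II genes, by library, with EYFP positive cells in yellow and EYFP negative cells in blue. The 4 ringed cells lie above 5% (dashed line) in 1 panel each, the highest at 55.6% acinar UMIs in EYFP negative run 3.

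Gene levels in NK cells were compared between pancreatitis and homeostasis on UMIs summed per library, over the 5 libraries with NK cells and with EYFP in the model. Of 869 genes tested, edgeR's quasi-likelihood test called 7 higher (0.806% of genes) and 2 lower (0.23%) in pancreatitis at an adjusted p under 0.05, with 21 higher (2.42%) and 5 lower (0.575%) at an unadjusted p under 0.05. DESeq2 called 0 genes, with 130 at an unadjusted p under 0.05. Of the 7 higher genes, 5 encode acinar secretions: Clps (4.71 ± 0.86 on the log2 scale, SE), Cela3b (4.02 ± 0.96), Try4 (3.95 ± 0.96), Ctrb1 (3.63 ± 0.88) and Ctrl (3.36 ± 0.87). The sixth was the haemoglobin gene Hba-a2 (3.88 ± 0.93). Try4 is 1 of several near-identical trypsinogens, so its own level is uncertain. Without the 4 rich members Ctrb1 was at 1.79 ± 0.69 (adjusted p = 0.751), Try4 at 1.72 ± 0.86 (adjusted p = 0.995) and Hba-a2 at 3.44 ± 1.02 (adjusted p = 0.0867), while Clps, Cela3b and Ctrl no longer had enough UMIs to be tested.

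Fos, the immediate-early transcription factor, was the seventh gene to rise. It was at 438 CPM in EYFP positive run 3 and 655 CPM in EYFP negative run 3, against 0 (0 of 2160 UMIs) in EYFP positive run 1, 106 CPM in EYFP negative run 1 and 72.3 CPM in EYFP negative run 2. Both pancreatitis values lay above those of EYFP negative runs 1 and 2, while the 2160 UMIs of EYFP positive run 1 are too few to place it below them. The log2 difference was 2.92 ± 0.76 (SE, adjusted p = 0.0449), or 3.19 ± 0.76 (adjusted p = 0.00519) without the 4 rich members. Of the 38 immediate-early and dissociation genes listed, 22 were tested: 18 were higher and 4 lower, with a median of 0.84, and 1 was called. Fos lost its call in 10 of 16 other settings, and without EYFP negative run 3 or EYFP negative run 2 the whole comparison called 78 or 4 genes in place of 9. Over all genes tested 537 of 869 were higher, with a median of 0.17.

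Without the 4 rich members 6 of 943 genes were called, and Fos and Xist were the 2 shared with the full set. The other 4 were the heat shock genes Hspa1a and Hspa1b and the factor Jun, which rose, and the immunoglobulin light chain gene Igkc, which fell. Jun was at 1275 and 1360 CPM in EYFP positive and EYFP negative run 3, against 0, 53.2 and 343 CPM in EYFP positive run 1 and EYFP negative runs 1 and 2, a log2 difference of 3.51 ± 0.85 (adjusted p = 0.00671). Hspa1b was at 818 and 592 CPM against 0, 0 and 68.6 CPM, a difference of 5.34 ± 1.06 (adjusted p = 0.000237), and Hspa1a at 247 and 642 CPM against 0 in all 3 (adjusted p = 1.73e-05). The zeros of EYFP positive run 1 rest on 2160 UMIs. With the rich members in, EYFP negative run 2 held 28 UMIs of Hspa1a in place of 0, or 1012 CPM. That lay above EYFP positive run 3 at 247 CPM and EYFP negative run 3 at 591 CPM. Hspa1b was then at 434 CPM and Jun at 904 CPM in EYFP negative run 2. In that full set the log2 differences were 0.54 ± 0.94 for Hspa1a, 1.92 ± 0.90 for Hspa1b and 1.91 ± 0.90 for Jun. None was called (adjusted p = 0.997 for each). Without the rich members Igkc was at 19.0 and 22.0 CPM against 0, 390 and 343 CPM (-3.79 ± 0.86, adjusted p = 0.00257). In this set 21 of 22 immediate-early genes were higher, with a median of 0.94 and 4 called, while 570 of all 943 genes were higher, with a median of 0.16.

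T and B cells of the same libraries were looked at for the same genes, in the order EYFP positive and EYFP negative run 3, against EYFP positive runs 1 and 2 and EYFP negative runs 1 and 2. In T cells both run 3 libraries lay above all 4 homeostasis libraries for Hspa1a (1842 and 916 CPM against 10.1, 460, 8.19 and 142 CPM), Hspa1b (1950 and 666 CPM against 13.5, 582, 10.9 and 176 CPM) and Jun (1103 and 1034 CPM against 422, 866, 87.4 and 270 CPM). In B cells this held for Hspa1a (1691 and 1247 CPM against 8.91, 989, 9.46 and 385 CPM), while Hspa1b and Jun overlapped. Fos was at 1088 and 699 CPM in T cells of EYFP positive and EYFP negative run 3, against 287, 1401, 65.5 and 84.4 CPM in EYFP positive runs 1 and 2 and EYFP negative runs 1 and 2. In B cells it was at 837 and 510 CPM against 468, 1839, 241 and 299 CPM. In both cell types EYFP positive run 2, which had 0 NK cells, held the highest Fos level of all 6 libraries, so the conditions overlapped. Igkc in T cells was at 0 and 10.5 CPM in run 3, against 20.3, 40.6, 478 and 350 CPM. In B cells, its source, Igkc was at 7012 and 16741 CPM in run 3, against 178892, 7822, 138507 and 74355 CPM in homeostasis. The part of dissociation and of free RNA in the NK values was not tested.

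Of the 2 genes that fell, Ccnd1, which encodes the cell cycle regulator cyclin D1, rested on 1 cell. It had 0 of 397729 UMIs in pancreatitis and 26 of 86223 in homeostasis, at least 40.0-fold lower with a floor of 3 UMIs over the pancreatitis group (adjusted p = 0.00742). The class II-rich cell of EYFP negative run 2 held 24 of the 26. Xist, the RNA of the inactive X chromosome, was at 114 and 75.3 CPM in EYFP positive and EYFP negative run 3, against 2778, 762 and 1337 CPM in EYFP positive run 1 and EYFP negative runs 1 and 2 (-3.80 ± 0.79, adjusted p = 0.00742). The Y-linked Ddx3y was at 57.1 and 95.6 CPM in run 3 and at 0, 0 and 36.1 CPM in homeostasis. Of the 26 Xist UMIs of EYFP negative run 3, 14 lay in 1 cell. T cells of the same libraries had 0 and 8.72 CPM of Xist in run 3, against 1318, 325, 1073 and 832 CPM in EYFP positive runs 1 and 2 and EYFP negative runs 1 and 2. The labels give no sex, and a difference in sex between the runs cannot be told apart from the condition. The next genes by p in that direction were Gm42418 (-2.06 ± 0.72, adjusted p = 0.504), Gm2a (-3.40 ± 1.44, adjusted p = 0.997) and Ctsz (-2.93 ± 1.35, adjusted p = 0.997), which did not pass.

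Genes that define NK cells were also looked at in this comparison. The 7 rule genes chose the cells, so their values here are a description and do not show a stable level. Of these 7, 6 were higher and 1 lower, with a median log2 difference of 0.43. Gzma was at 4378 and 6037 CPM in EYFP positive and EYFP negative run 3, against 0, 6135 and 10374 CPM in EYFP positive run 1 and EYFP negative runs 1 and 2, so the groups overlapped. Ccl5 was at 8565 and 11110 CPM against 3241, 7837 and 6615 CPM. The 3241 CPM of EYFP positive run 1 came from 7 UMIs in 1 cell. Xcl1 was lower in both pancreatitis libraries, at 552 and 698 CPM against 926, 3298 and 1193 CPM, but 1 cell held 166 of the 186 Xcl1 UMIs of EYFP negative run 1 and another 26 of the 33 of EYFP negative run 2. Klrc1 was higher, at 647 and 426 CPM against 0, 142 and 181 CPM. All values of EYFP positive run 1 rest on 2160 UMIs. How many of all tested genes separate the libraries in this way was not counted. The log2 difference of Gzma, a rule gene, was 0.86 ± 0.90 (SE). The differences were 1.17 ± 0.68 for Ccl5, -1.22 ± 0.79 for Xcl1 and 1.70 ± 0.72 for Klrc1 (SE), and none of these passed (adjusted p = 0.997 for each). The 9 tested genes of the granule list, 9 of the activating, 8 of the class I-binding, 9 of the transcription factor, 9 of the mature, 9 of the immature, 5 of the ILC1, 7 of the cytokine, 7 of the cytokine receptor, 14 of the homing and 9 of the interferon list gave 0 calls. The granule, activating and class I-binding lists include rule genes. The medians of all these lists lay between -0.34 (ILC1) and 0.94 (immature). On counts simulated with the same library sizes the test recovered 75.9% of 54 genes changed 8-fold. It recovered 48.1% of 54 changed 4-fold and 8.93% of 56 changed 2-fold, with 2 false calls among 977 genes tested. All simulated libraries came from 1 pooled profile with 1 common dispersion. Single cells rich in a gene were not simulated, so recovery and false calls in the real counts may differ.

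**Figure D5:**
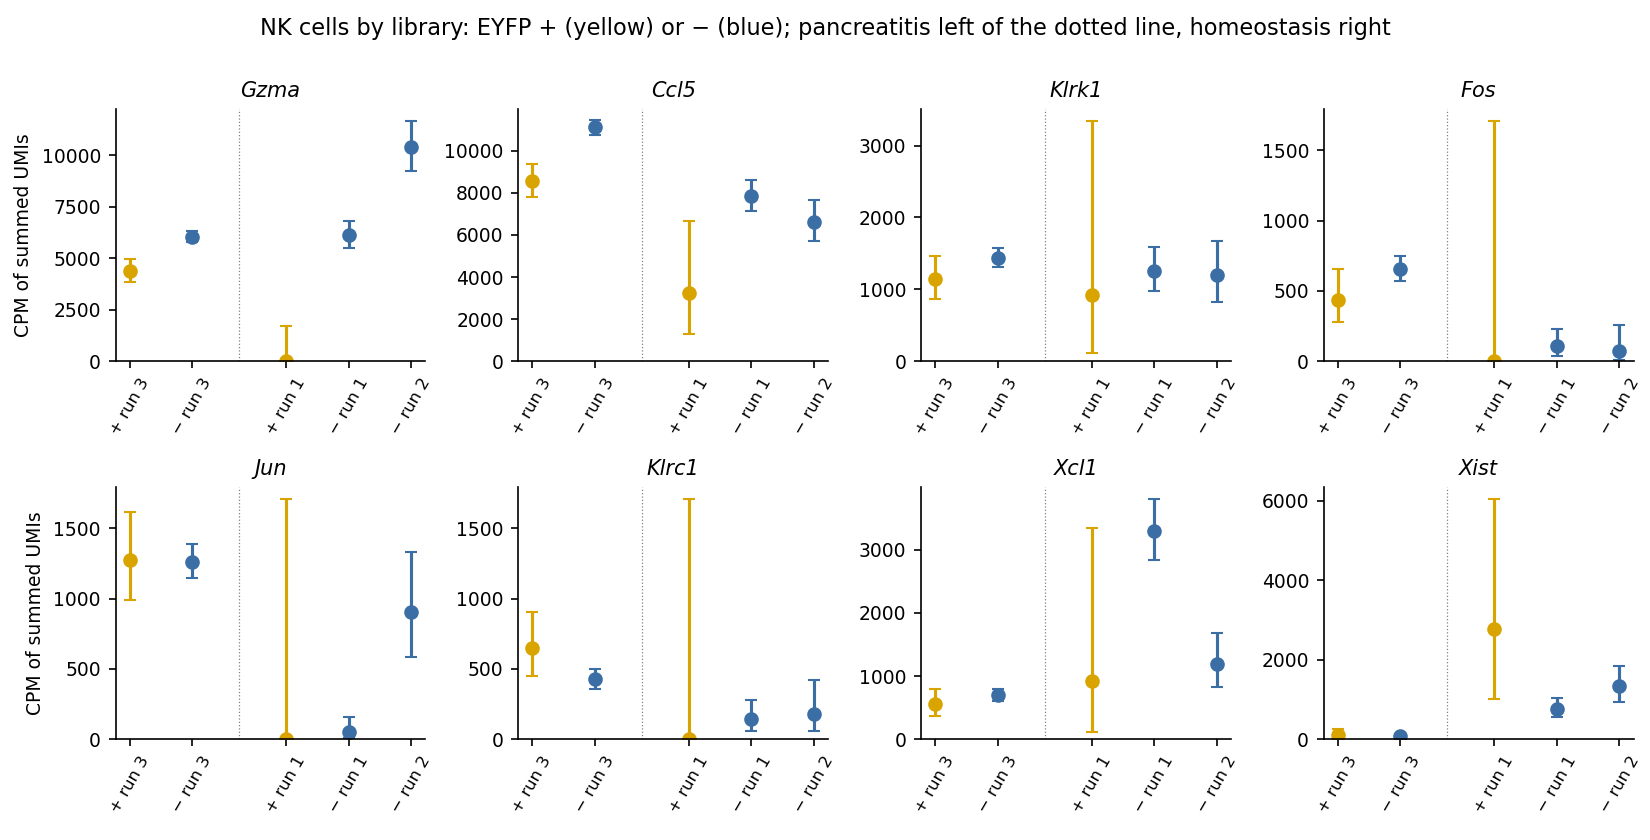
CPM of 8 genes in the NK cells of each library, with 95% exact Poisson intervals that cover counting error only, EYFP positive in yellow and EYFP negative in blue, pancreatitis left of the dotted line. Fos lies at 438 and 655 CPM in pancreatitis, against 0 to 106 CPM in homeostasis, Xist is lower in both pancreatitis libraries, and the intervals of EYFP positive run 1, with 2 cells, are wide.

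Between EYFP positive and EYFP negative NK cells the same fit gave 0 genes higher and 1 lower (0.115% of 869), a count that ran from 0 to 138 on leaving out 1 library (138 without EYFP positive run 3, 89 without EYFP negative run 3, 20 without EYFP positive run 1, 4 without EYFP negative run 1), with 3 higher (0.345%) and 17 lower (1.96%) at an unadjusted p under 0.05. DESeq2 also called 1 gene. The gene was Clps, at -6.68 ± 1.27 (adjusted p = 0.00563), with 3 UMIs in the 2 EYFP positive libraries and 1963 in the 3 EYFP negative ones, of which 1887 lay in the acinar-rich cell. Without the 4 rich members 0 genes were called. The next 4 by p, Ctrl (-5.08), Cpb1 (-4.64), Cpa1 (-3.95) and Prss2 (-5.17), are acinar genes too and had adjusted p-values of 0.0892 to 0.191. The 5 of lowest p in the other direction were Gm42418 (2.25 ± 0.67, adjusted p = 0.238), AY036118, Trpm7, Tmed5 and Itgb7, the last 4 at 1.90, 2.17, 1.52 and 1.26, all with adjusted p = 0.99998. Of the 7 rule genes, all 7 were lower in EYFP positive cells, with a median of -0.67, while 573 of all 869 genes were lower, with a median of -0.23. The rule genes chose the cells, so their values are a description. EYFP positive NK cells numbered 8 in all.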

How the data were processed

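The deposited matrices hold UMI counts per gene and barcode, 31053 features for each of 6 libraries. The authors made these counts with Cell Ranger 2.1.0, per the submitters' processing notes, which also name the build GRCh38; the file headers give software version 3.1.0. The gene identifiers are mouse ones; their genome build and annotation were not given in the sources used here. No feature is named EYFP. The labels' protocols describe neither sorting nor dissociation.

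Kept barcodes had 200 genes or more and no more than 20% of UMIs from mitochondrial genes. Total UMIs per library ran from 1044718 to 23658431. CD8 T cells held a UMI of Cd3d, Cd3e or Cd3g and of Cd8a or Cd8b1, 0 of Cd4, Cd79a and Lyz2; CD4 T cells held Cd4 and 0 of Cd8a and Cd8b1; B cells held Cd79a and 0 of Cd3d, Cd3e, Cd3g and Lyz2. Scrublet (scanpy 1.11.5, 20 components, per library) called 41 of 4929 kept barcodes doublets; these were left in, and removed in an alternative. Shares were compared with exact permutation tests over libraries. UMIs were summed per library over NK cells and tested with edgeR 4.0.16's quasi-likelihood test (condition and EYFP as terms, TMM scaling, filterByExpr, Benjamini-Hochberg over all genes tested), with DESeq2 1.42.0 as an alternative, in R 4.3.3. The planned fit needed at least 10 NK cells per library, which 1 library had, so the fit without that limit, planned beside it, is reported, with 2 residual degrees of freedom. The quasi-likelihood test adds degrees of freedom borrowed from all genes, so its p-values rest on more than these 2. Intervals (95%, exact Poisson or binomial) and limits from a count of 0 (3 counts) cover counting error only. The test was tried on simulated counts. Promoters and their coordinates came from RefSeq (GRCm38.p6).

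Genes were named by a rule: up to 10 called genes per direction or else the 5 of lowest p, the rule genes, listed genes in at least 10% of NK cells or that define a cell type, the 25 leading genes, and Xist and Ddx3y. Igkc, Jun, Hspa1a and Hspa1b, called without the 4 rich members, and the genes of the granzyme A split were chosen after their values were seen. The members and lists were chosen with earlier results of these data known. Some listed genes are not reported here.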

Additional observations from a re-analysis of the deposited data

How the results depend on the processing

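The NK share differences kept their direction and missed significance by the exact permutation test in every alternative run, with 2 exceptions in direction: the EYFP difference of NK among NK and T cells was 0.0734 points when cells with Trac, Trbc1 or Trbc2 were barred, and ran from -9.75 to 0.251 points on leaving out 1 library, the highest without EYFP positive run 2. Genes called between pancreatitis and homeostasis, 9 in the reported fit, numbered 3 with DESeq2 size factors, 1 with no low-count filter, 2 at 500 genes and 10% mitochondrial UMIs, 19 at 4 markers, 29 at 5 markers, 3 with library sizes lacking haemoglobin and acinar genes, 4 without called doublets, 0 without shared barcodes, 35 in EYFP negative libraries only and 0 with DESeq2. Leaving out 1 library gave 4 (without EYFP negative run 2) to 78 (without EYFP negative run 3), with 31 without EYFP positive run 1 and 14 without EYFP positive run 3. Between EYFP positive and EYFP negative cells, 1 in the reported fit, they numbered 6 at 4 markers, 21 at 5 markers, and 0 with no low-count filter, at 500 genes and 10% mitochondrial UMIs, without doublets, without shared barcodes and without the 4 rich cells. Leaving out 1 library gave 138 genes without EYFP positive run 3, 20 without EYFP positive run 1, 89 without EYFP negative run 3, 4 without EYFP negative run 1 and 0 without EYFP negative run 2. The cause was not tested. The limit of 5 markers and the removal of shared barcodes, doublets and rich cells were chosen after the data were seen.

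With the run number as a replicate block, 0 genes were called for EYFP (1706 tested). The numbers were not taken as pairs in the reported fit. Deviations of same-numbered libraries from their EYFP means had correlations of -0.0479 and -0.0228, which cannot decide pairing. The 2 EYFP positive libraries deviate by equal and opposite amounts, and 1 of them held 2160 UMIs. Same-numbered libraries shared 23, 71 and 47 barcodes, against 0 to 2 for other pairs of libraries. A block could not be fitted for pancreatitis, since runs 1 and 2 are homeostasis and run 3 is pancreatitis. On leaving out 1 library, Try4 in pancreatitis ran from -0.52 to 4.53, and Cpb1 and Prss2 between EYFP groups from -9.05 to 0.065 and from -6.29 to 0.38, on the log2 scale. Over the settings of named genes, 211 values stayed on their side of the threshold, 69 lost and 23 gained a call. Fos lost its call in 10 of 16 settings and Xist in 4 of 16. The gene fit barring Trac, Trbc1 and Trbc2 had 3 libraries and 0 residual degrees of freedom and was not run.

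NK numbers set the limit: 1 library held 63 of 86 cells, and the 2 EYFP positive libraries held 8.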

Other observations

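Ribosomal, mitochondrial and interferon genes were also looked at in the NK cells, and none was called. In NK cells of pancreatitis against homeostasis, 75 of 81 tested cytosolic ribosomal protein genes were higher, with a median log2 difference of 0.55, and 0 of 11 mitochondrially encoded genes were higher, with a median of -0.68, against 0.17 over all 869 genes. The median mitochondrial share of UMIs per NK cell was 1.97% and 2.63% in EYFP positive and EYFP negative run 3, against 3.42%, 4.09% and 9.27% in EYFP positive run 1 and EYFP negative runs 1 and 2. All 9 tested genes of the interferon and MHC class I list were higher, with a median of 0.22, and 0 were called. Depth and the number of NK cells differed between these libraries, and their part in these values was not tested.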
